A study of Mus musculus with 6 samples.

Results

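Cytokinesis is the last step of cell division, and 8 genes that act in it are described here in embryonic mouse cortex: Racgap1, Ect2, Anln, Prc1, Cep55, Cit, Aurkb and Incenp. They were taken by symbol from a list of 8, and all 8 were found among the 54146 genes of the count tables and passed the filter on low counts. The members were chosen by function with the log2 fold changes of these data in view, among them those of Racgap1 and Ect2, which were higher in one group. Their values in that comparison are therefore given as a description. Counts of test calls among them are printed only beside those over all genes, and nothing is read from them.

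The libraries came from the cortex of mouse embryos in which plasmids had been electroporated in utero at embryonic day E14.5. Both groups received a GFP plasmid under the CAG promoter (0.7 µg/µl). The Mir group (miR3607 overexpression, 3 libraries) also received a plasmid (1 µg/µl) that makes a precursor of the microRNA miR-3607 from the U6 promoter, and the Scr group (control, 3 libraries) the vector maker's scrambled hairpin at the same concentration. GFP-positive cells were sorted 24 hours later, at E15.5, and each library pooled the cells of 2 wild-type embryos, whose strain the labels give both as ICR and as C57BL/6. The GFP and the hairpin were on separate plasmids, so that the sort did not select directly for the hairpin, and its product was not measured in these libraries. The title of the series names control of Wnt/β-catenin signalling by miR-3607 as its subject, and the design asks how an excess of the microRNA alters the expression profile of cortical progenitors. Each library held from 12724511 to 16684038 counts in genes.

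When the chromosomes part in anaphase, the microtubules between them are bundled into the central spindle, which tells the cell cortex where to build an actomyosin ring. The ring closes the cell down to a thin bridge around the midbody, and membrane-cutting proteins then sever the bridge. In the ventricular zone the apical progenitors divide at the ventricle surface, with the bridge at or near the apical side, and loss of Cit, Kif14 or Cep55 in this lineage is known to give a small brain. Racgap1 and its kinesin partner Kif23 form the centralspindlin complex, Ect2 is the exchange factor for RhoA that centralspindlin recruits, and Prc1 crosslinks the microtubules. Anln links actin, myosin and septins in the ring, and Cit is a kinase that keeps the midbody in order. Aurkb is the kinase of the chromosomal passenger complex and Incenp its scaffold, and Cep55 brings the cutting machinery to the midbody.

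Many genes of late cell division carry the CHR, a promoter element bound by the MuvB core of the DREAM complex, which represses them in resting cells, and by its activating form with B-Myb and FoxM1 in G2 and mitosis. A CCAAT box, the site of NF-Y, often lies upstream of it. The stretches from 50 bases before to 50 bases after the start site are printed here for 6 genes. Of these, 5 share the CHR letters in them. The letters were not used to draw up the list, but the genes were chosen for a part in late cell division, where the element is common. Sequences are from RefSeq on GRCm38.p6, read 5′ to 3′ in the direction of the gene, with capitals for CHR letters (TTTGAA) and CCAAT, each on either strand.
Racgap1 (chr15:99651607-99651706, minus strand): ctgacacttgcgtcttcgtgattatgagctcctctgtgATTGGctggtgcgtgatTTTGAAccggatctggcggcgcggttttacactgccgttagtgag
Ect2 (chr3:27153829-27153928, minus strand): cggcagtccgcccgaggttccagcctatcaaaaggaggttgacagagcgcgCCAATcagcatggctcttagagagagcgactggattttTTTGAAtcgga
Anln (chr9:22389157-22389256, minus strand): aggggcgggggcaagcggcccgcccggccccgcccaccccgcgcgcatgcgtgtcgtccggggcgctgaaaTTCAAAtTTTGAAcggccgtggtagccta
Prc1 (chr7:80294401-80294500, plus strand): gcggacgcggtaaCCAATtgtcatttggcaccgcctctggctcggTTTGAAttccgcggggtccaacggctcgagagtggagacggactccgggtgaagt
Cep55 (chr19:38054934-38055033, plus strand): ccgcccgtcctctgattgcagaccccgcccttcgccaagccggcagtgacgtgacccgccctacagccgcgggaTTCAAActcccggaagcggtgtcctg
Cit (chr5:115845606-115845705, plus strand): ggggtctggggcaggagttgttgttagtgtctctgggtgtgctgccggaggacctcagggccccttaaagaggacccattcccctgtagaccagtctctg

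Of the 8 genes 6 had a promoter window in the table, which runs from 250 bases before to 50 after a start site, and where a gene had several the first listed was used. In 5 of these 6 the CHR letters lay within 50 bases of the start site, a limit set after the sequences were seen. The same was true of 4.94% of all 32851 windows, and 17.9% held the letters anywhere. In Racgap1 they began 6 bases after the start, with CCAAT on the opposite strand 12 bases before it. Ect2 had them from 40 bases after and again from 114 bases before the start, with CCAAT at 3 places, and Prc1 had them from 5 bases before the start with CCAAT at 37 bases before it. Anln held a facing pair, starting 22 and 29 bases after the start, and Cep55 a single copy on the opposite strand at 25 bases after it. The window of Cit held neither motif. It lies inside the annotated gene, which starts at 115845278, so the sequence before that start was not searched. CCAAT occurred anywhere in 3 of the 6 windows, against 37.4% of all windows. A match is a run of letters only and does not show that a factor binds there.

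**Figure D1:**
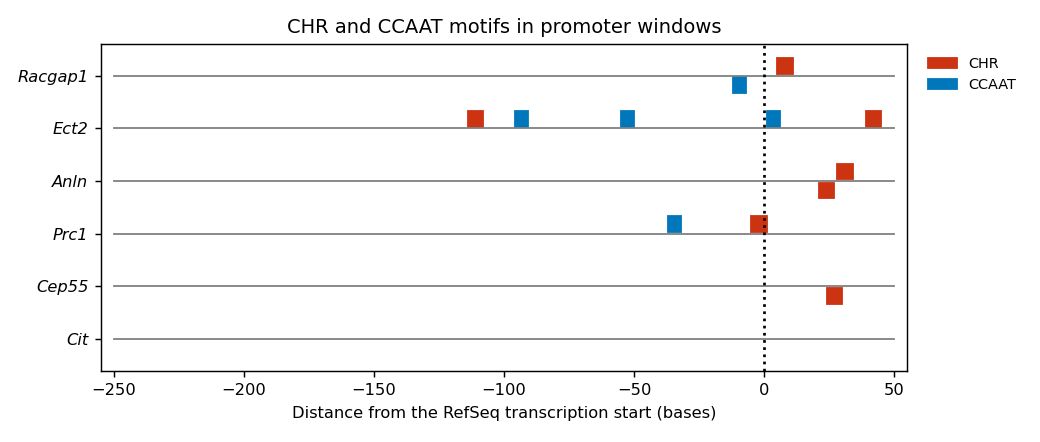
Positions of the CHR (TTTGAA, red) and CCAAT (blue) letters in the RefSeq promoter windows of 6 cytokinesis genes, by distance in bases from the transcription start (dotted line). Boxes above a line are on the strand of the gene and boxes below it on the opposite strand. In 5 of the 6 genes a red box lies within 50 bases of the start.

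The strand of the miR-3607 hairpin that follows the loop, read from the oligonucleotide in the labels, is shown because its seed (bases 2 to 8, in capitals) sets which transcripts could pair with it.
miR-3607 strand: gCATGTGAtgaagcaaatcag

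Matches to this seed (TCACATG, or CACATGA, which pairs with bases 2 to 7 and has an A opposite base 1) were looked for in 1 transcript per gene, the GENCODE M21 transcript with the longest coding sequence among those that have a 3′ UTR. Of the 8 genes, Ect2 and Aurkb held 1 match each, and 17.4% of 12920 tested genes held at least 1. Both were of the second kind, which is the weaker one, and are printed with the matched bases in capitals.
Ect2, 3′ UTR, match at chr3:27097913-27097919, minus strand: aagagatctaaCACATGAattttaaaggat
Aurkb, 3′ UTR, match at chr11:69051244-69051250, plus strand: tgcacaccaaaCACATGAagttacaaacaa
Racgap1 and Incenp, with the largest fold changes of the 8, held no match in the 893 and 381 bases searched. The means of Ect2 and Aurkb, the genes with a match, were also higher in Mir. An effect of the hairpin on any of these transcripts through its seed was not tested.

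All 8 cytokinesis genes had higher mean levels in Mir than in Scr, by 10.7% for Cit to 61.6% for Incenp. The median log2 fold change of the 8 was 0.43, where that of all 16897 tested genes was -0.01. A higher mean was found for 48.8% of all tested genes, and for 55.9% of the 5539 genes whose mean level lay between those of the lowest and the highest of the 8, with a median of 0.03 there. In 4 of the 8 genes (Racgap1, Ect2, Aurkb and Incenp) the 3 Mir libraries all lay above the 3 Scr libraries, as they did in 9.72% of all tested genes. The edgeR test called 0 of the 8, limma-voom 0 and DESeq2 2 (Racgap1 and Incenp), and edgeR with no filter on low counts called 1 (Racgap1). Over all tested genes edgeR called 0% higher and 0.00592% (1 gene, lower) in either direction at an adjusted p under 0.05. DESeq2 called 1.38% higher and limma-voom 0, and edgeR with no filter called 15 higher among 30638 genes. At an unadjusted p under 0.05 in edgeR there were 5 of the 8, and 1110 higher and 1340 lower of all genes. Since this comparison entered the choice of the genes, nothing is read from these counts. In sorted bulk cells a larger share of dividing cells and more RNA per dividing cell cannot be told apart.

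Levels are CPM (read counts scaled to library size and the edgeR normalization factors). A positive log2 fold change, printed ± SE, means a higher level in Mir. Racgap1 (ENSMUSG00000023015, chromosome 15, 99620496 to 99651656, minus strand) was at 245, 227 and 254 CPM in the Scr libraries (replicates 1 to 3 in this order, here and for the genes that follow) and at 385, 371 and 415 CPM in the Mir libraries. The groups were clear of each other, with 117 CPM between the lowest Mir and the highest Scr library. The group means were 242 ± 13.9 and 390.2 ± 22.6 CPM (SD, n = 3), a log2 fold change of 0.69 ± 0.08, which ranked 419 from the top among all tested genes. Each value rests on 3131 to 6116 counts.

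Its kinesin partner Kif23, which was picked out with its values known, averaged 109 ± 24.8 CPM in the control and 147 ± 12.6 CPM in the Mir libraries (SD, n = 3). Its log2 fold change was 0.44 ± 0.17 (edgeR adjusted p = 0.311). The direction was the same for both centralspindlin genes, and the Scr libraries spread more widely for Kif23. Ect2 (ENSMUSG00000027699, chromosome 3, 27097222 to 27153878, minus strand) was at 121, 94.1 and 127 CPM in the Scr libraries, replicates 1 to 3, and at 163, 142 and 152 CPM in the Mir libraries. Here Scr replicate 2 was the lowest and Mir replicate 1 the highest, and 14.8 CPM separated the groups. The log2 fold change was 0.41 ± 0.13.

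Prc1 (ENSMUSG00000038943, chromosome 7, 80294450 to 80316259, plus strand) was at 267, 159.9 and 239.96 CPM in Scr replicates 1 to 3 and at 255, 236 and 336 CPM in Mir replicates 1 to 3. The groups overlapped, since Scr replicate 1 lay above Mir replicates 1 and 2. The log2 fold change was 0.31 ± 0.21. It was 0.12 without Scr replicate 2, the lowest library, 0.13 without Mir replicate 3, the highest, and -0.05 without both. Of the exonic bases of Prc1 11.1% are shared with Rccd1 on the other strand, so that its counts are uncertain there.

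Anln (ENSMUSG00000036777, chromosome 9, 22332012 to 22389188, minus strand) ran much like Prc1, at 56.5, 40.8 and 52.0 CPM in the Scr and 55.9, 52.1 and 67.6 CPM in the Mir libraries. The groups overlapped, and the log2 fold change was 0.23 ± 0.15. It was 0.11 without Scr replicate 2, 0.10 without Mir replicate 3 and -0.01 without both. Cit (ENSMUSG00000029516, chromosome 5, 115845278 to 116008947, plus strand) was at 41.9, 36.3 and 39.6 CPM in Scr and at 38.1, 44.5 and 47.8 CPM in Mir. It had the smallest log2 fold change of the 8, 0.15 ± 0.12, with Mir replicate 1 below Scr replicates 1 and 3. That value was 0.06 without Mir replicate 3, 0.09 without Scr replicate 2 and 0.24 without Mir replicate 1. The gene also makes a shorter form without the kinase part in neurons, and counts per gene do not separate the forms.

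Of the chromosomal passenger genes, Incenp (ENSMUSG00000024660, chromosome 19, 9872296 to 9899551, minus strand) was at 47.3, 38.8 and 53.0 CPM in the Scr and 70.1, 65.5 and 89.2 CPM in the Mir libraries. The groups did not overlap, the means were 46.4 ± 7.16 and 74.9 ± 12.6 CPM (SD, n = 3), and the log2 fold change was 0.69 ± 0.16, or 0.43 without Scr replicate 2 and Mir replicate 3. Aurkb (ENSMUSG00000020897, chromosome 11, 69045647 to 69051664, plus strand) was at 127, 94.7 and 119 CPM in Scr and at 142, 141 and 182 CPM in Mir. The groups lay 13.7 CPM apart and the log2 fold change was 0.45 ± 0.15, or 0.20 without Scr replicate 2 and Mir replicate 3. Of the other passenger subunits, Cdca8 (borealin) was at 0.49 ± 0.15 (edgeR adjusted p = 0.247). Birc5 (survivin), picked out with its values known, was at 0.36 ± 0.19 (edgeR adjusted p = 0.437).

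Cep55 (ENSMUSG00000024989, chromosome 19, 38055011 to 38074423, plus strand) was at 49.8, 38.5 and 65.3 CPM in Scr and at 64.6, 76.8 and 77.2 CPM in Mir. The groups just met, as Mir replicate 1 minus Scr replicate 3 came to -0.721 CPM. The log2 fold change was 0.51 ± 0.19, and it was 0.34 without Scr replicate 2 and 0.73 without Scr replicate 3.

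**Figure D2:**
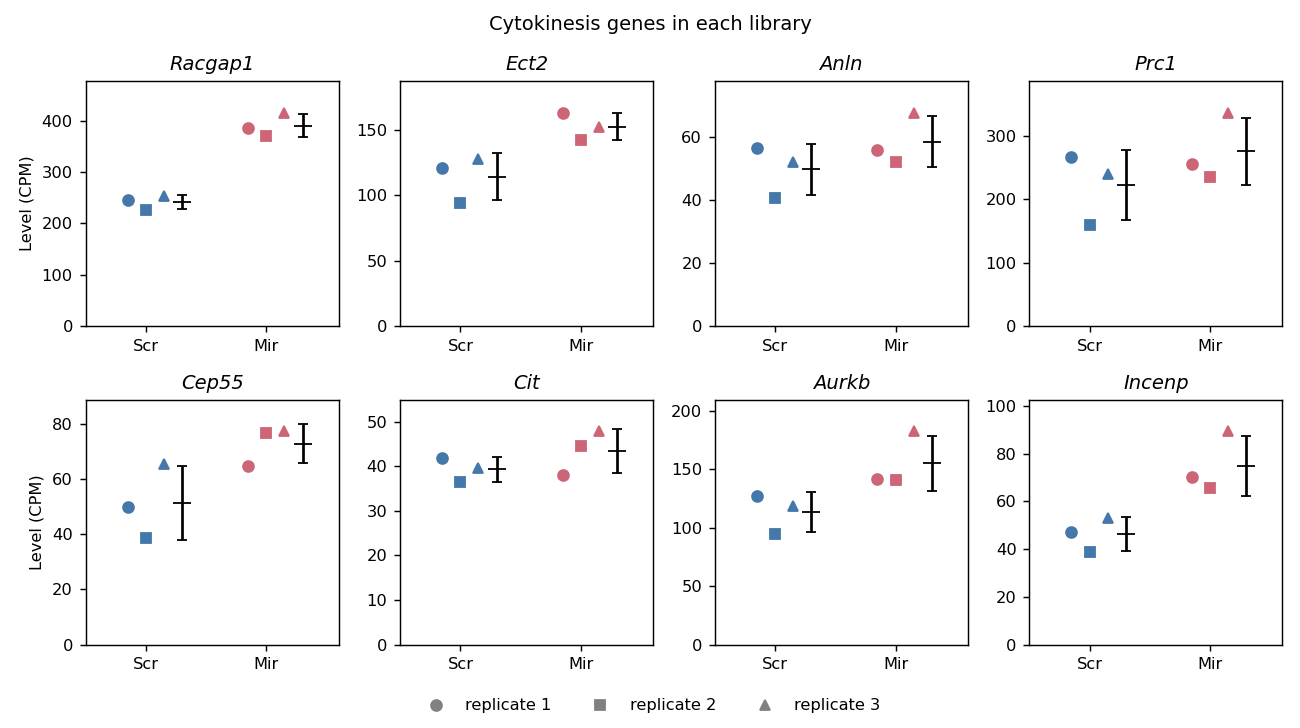
Level in CPM of each of the 8 cytokinesis genes in the 3 Scr (blue) and 3 Mir (red) libraries, with marker shape giving the replicate number and black bars the mean ± SD of each group. Axes start at 0 and differ between genes. In every panel the lowest point is Scr replicate 2, and the groups are clear of each other for Racgap1, Ect2, Aurkb and Incenp.

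Across libraries the 8 genes shared their lowest library, and 7 their highest, while the order of the other libraries varied. Scr replicate 2 was the lowest library for 8 of 8 genes, and Mir replicate 3 the highest for 7, all but Ect2. Their median level against the Scr mean, on log2 (CPM + 0.5), was 0.10, -0.26 and 0.11 in the Scr libraries (replicates 1 to 3) and 0.35, 0.32 and 0.62 in the Mir libraries. Over the 6 libraries the 28 pairs of genes had Pearson correlations from 0.53 (Ect2 with Cit) to 0.996 (Anln with Prc1), with a median of 0.83. After the group means were removed the median was 0.72, with Ect2 and Cit at 0.18. These are descriptions over 6 points that share libraries and groups.

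By Pearson correlation with the mean standardized profile of the 8 genes over the 6 libraries, the nearest of 10417 other genes at a mean of at least 10 CPM were Zw10 (a kinetochore protein), Arhgap11a (a GTPase-activating protein for RhoA), Peli2 and Ubox5 (ubiquitin ligases) and Kif18b (a microtubule-depolymerizing kinesin). Their correlations were 0.989 to 0.993, and high values arise easily over 6 points. Arhgap11a was at 107, 84.6 and 106 CPM in the Scr and at 126, 131 and 152 CPM in the Mir libraries.

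Per kilobase of exon, the Scr libraries ranked the genes from Aurkb at 38.6 ± 5.75 CPM per kb (SD, n = 3) down to Cit at 2.39 ± 0.17. Racgap1 was at 34.2 ± 1.96, Prc1 at 27.0 ± 6.79, Ect2 at 21.2 ± 3.30, Cep55 at 17.6 ± 4.62, Incenp at 10.7 ± 1.65 and Anln at 5.49 ± 0.894 CPM per kb. The ranges of neighbours overlapped from Aurkb down to Cep55, while Incenp, Anln and Cit each lay wholly below the gene before. In Mir the order began with Racgap1 at 55.1 ± 3.19 and Aurkb at 52.7 ± 8.04 CPM per kb, again within their spread. Lengths are the union of all annotated exons, which lowers the values of genes with many alternative exons. The union was 8225 bases for Prc1, whose transcript searched for seed matches had 1860 coding and 1069 3′ UTR bases. For Racgap1 the 3 values were 7079, 1884 and 893, for Aurkb 2946, 1035 and 603, and for Cit 16417, 6165 and 2619. The order of the genes, with Aurkb first, therefore holds for this choice of length only.

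The rest of the cytokinesis machinery was followed in 3 lists. Of 12 other central spindle genes all 12 averaged higher in Mir. Their median log2 fold change was 0.44. In 8 the Mir libraries all lay above the Scr libraries, as they did in 9.72% of all tested genes. None passed edgeR (0 of 12, with 7 at an unadjusted p under 0.05, all higher), 1 passed DESeq2 (Arhgap11a) and 0 limma-voom. Over all 16897 tested genes 1110 were higher and 1340 lower at an unadjusted p under 0.05 in edgeR. DESeq2 called 233 higher and 322 lower. These counts also belong beside those of the lists below. Beside Cdca8 the largest value was that of Kif14, a kinesin that binds Prc1 and citron kinase, at 0.49 ± 0.22 (edgeR adjusted p = 0.361). The smallest were those of Arhgef2, a RhoA exchange factor that binds microtubules, at 0.28 ± 0.14 (edgeR adjusted p = 0.407), and the midbody kinesin Kif20b at 0.30 ± 0.12 (edgeR adjusted p = 0.320). Without Scr replicate 2 the list's median was 0.29, Kif14 was at 0.31 and Kif20b at 0.18.

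Contractile ring genes lay on both sides of 0. Of 20 tested, 8 averaged higher and 12 lower in Mir. Their median was -0.05, and the groups were separate in 0 upward and 4 downward, where 9.72% of all tested genes were separate upward and 10.3% downward. The median was 0.000929 without Scr replicate 2, -0.03 without Mir replicate 1 and -0.12 without Mir replicate 3. None passed edgeR (0 of 20, with 2 lower and 0 higher at an unadjusted p under 0.05), DESeq2 or limma-voom. At the low end were the septin gene Sept6 at -0.66 ± 0.29 and the formin gene Diaph1 at -0.40 ± 0.17 (edgeR adjusted p = 0.351 and 0.339). At the high end were the myosin light chain gene Myl9 at 0.61 ± 0.40 and Diaph2 at 0.23 ± 0.19 (edgeR adjusted p = 0.520 and 0.610). Without Scr replicate 2 the values were -0.29 for Sept6, 1.07 for Myl9 and 0.08 for Diaph2. Myl9 was at 0.34 without Mir replicate 2, and without Scr replicate 1 it was at 0.40 and Diaph2 at 0.45. These genes also serve the actin cytoskeleton of cells that do not divide.

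Of 23 genes of abscission, most of them ESCRT subunits and their helpers, 14 averaged higher and 9 lower in Mir, and the median was 0.11. The groups were separate upward in 5 and downward in 4 (9.72% and 10.3% of all tested genes). The median was 0.05 without Scr replicate 2. None passed edgeR (0 of 23, with 2 higher and 2 lower at an unadjusted p under 0.05) or limma-voom, and DESeq2 called 1, Rab11a. Rab35 and Rab11a, GTPases of the endosomes that feed the midbody, were at -0.39 ± 0.12 and -0.28 ± 0.08 (edgeR adjusted p = 0.244 and 0.224). The ESCRT-I subunit Vps37b was at 0.50 ± 0.16 and Zfyve26 at 0.35 ± 0.16 (edgeR adjusted p = 0.262 and 0.355).

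**Figure D3:**
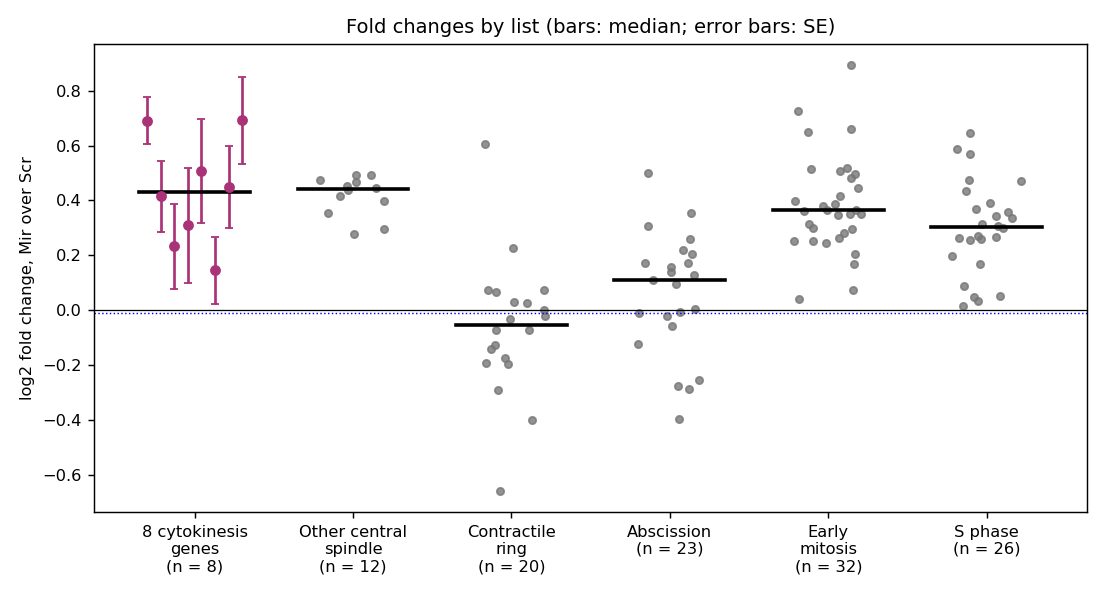
The log2 fold change, Mir over Scr, of each tested gene in 6 lists, with black bars for the median of each list, error bars (SE) on the 8 cytokinesis genes and a dotted line at the median of all tested genes. The 8 genes and the 12 other central spindle genes all lie above 0, with medians of 0.43 and 0.44, while the contractile ring and abscission genes spread to both sides.

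Genes of earlier cell cycle phases were followed beside the 8. All 32 early mitosis genes (kinetochore, checkpoint, cyclin and condensin genes) averaged higher in Mir, at a median of 0.36. So did all 26 S phase genes, at a median of 0.30. The Mir libraries all lay above the Scr libraries in 16 of the 32 and in 10 of the 26, beside 9.72% of all tested genes. By edgeR 0 of each list passed (13 and 11 at an unadjusted p under 0.05, all higher), by limma-voom 0, and by DESeq2 4 and 3, all higher. The largest of each list were the kinase gene Nek2 at 0.89 ± 0.22 with the condensin gene Ncapd2 at 0.72 ± 0.12, and the cyclin gene Ccne1 at 0.65 ± 0.24 with Ung, of DNA base repair, at 0.59 ± 0.28. Their edgeR adjusted p-values were 0.212, 0.167, 0.291 and 0.393. With Scr replicate 2 and Mir replicate 3 left out, 6 of the 8 cytokinesis genes, 12 of 12 central spindle, 27 of 32 early mitosis and 20 of 26 S phase genes had higher means in Mir. The medians were then 0.25 for the 8, 0.26 for central spindle, 0.15 for early mitosis and 0.13 for S phase genes. Without Scr replicate 2 alone the early mitosis median was 0.19. Ung was at 0.22 without Mir replicate 3, and Nek2 at 0.56 without both libraries.

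**Figure D4:**
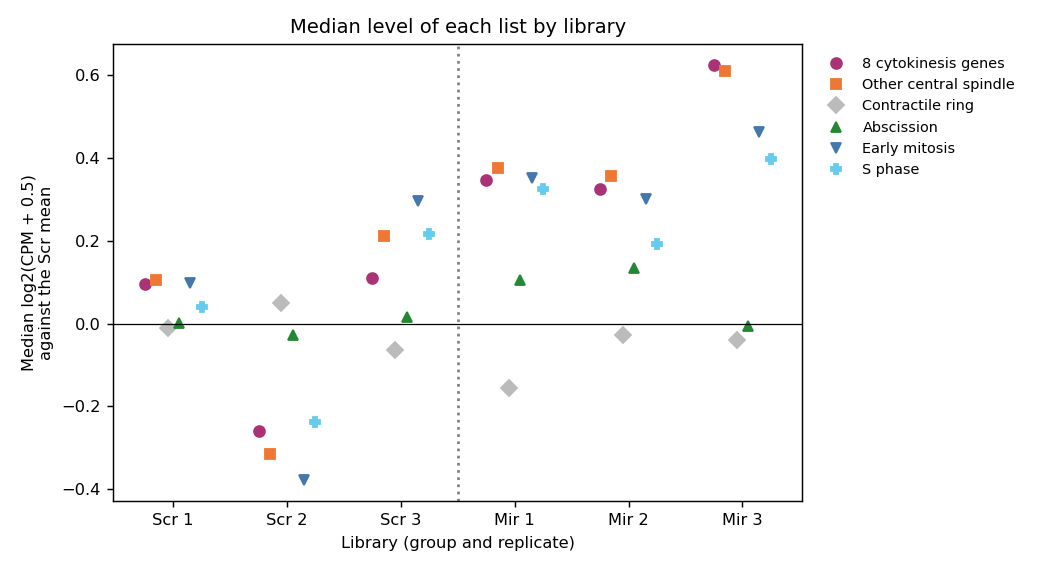
Median level of each list in each library, on log2 (CPM + 0.5) against the mean of the Scr libraries. For the 8 cytokinesis genes Scr replicate 2 is at -0.26 and Mir replicate 3 at 0.62, and the central spindle, early mitosis and S phase lists also have their lowest value in Scr replicate 2 and their highest in Mir replicate 3.

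To set the 8 genes beside mitosis in general, the median level of the 32 early mitosis genes was subtracted in each library. Racgap1 then stood at -0.08, 0.29 and -0.22 in the Scr libraries (replicates 1 to 3) and at 0.32, 0.32 and 0.32 in the Mir libraries. Its 3 Mir values were close to equal and lay just above Scr replicate 2. Incenp stood at -0.06, 0.14 and -0.09 in Scr and at 0.25, 0.20 and 0.49 in Mir, again with no overlap. The other 6 overlapped between groups, and the differences of their means ran from -0.23 for Cit to 0.17 for Cep55. Racgap1 and Incenp differed by 0.32 each. After the same subtraction the Mir libraries all lay above the Scr libraries in 0.391% of all tested genes. The medians subtracted were 0.10, -0.38 and 0.30 in Scr replicates 1 to 3 and 0.35, 0.30 and 0.46 in the Mir libraries. The subtraction thus lowers the Mir values of every gene by 0.30 to 0.46 and raises those of Scr replicate 2. This share is therefore not comparable with that for unsubtracted levels. Since this contrast entered the choice of the genes, nothing is read from it.

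**Figure D5:**
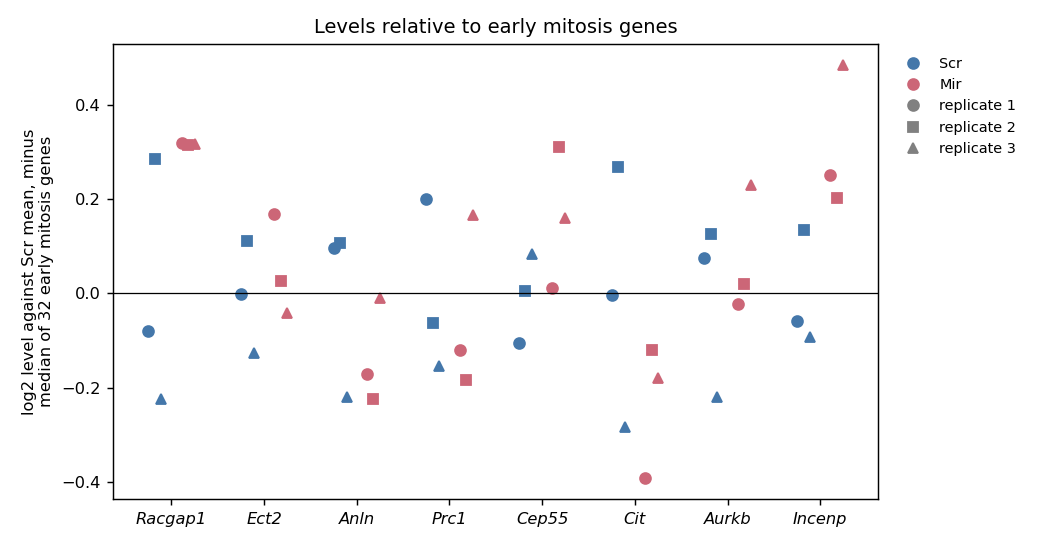
Level of each cytokinesis gene in each library on log2 (CPM + 0.5) against the Scr mean, after subtraction of the median of 32 early mitosis genes; Scr in blue, Mir in red, shape for the replicate number. Of the 8, Racgap1 and Incenp have all 3 Mir points above all 3 Scr points, as 0.391% of all tested genes do. The genes were chosen with this contrast known and the subtraction lowers all Mir values, so nothing is read from that share.

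The promoter letters were counted in the other lists too. Among genes with a window, the CHR letters lay within 50 bases of the start in 5 of 10 other central spindle genes (Kif23, Kif4, Kif20b, Plk1 and Cdca8) and in 17 of 27 early mitosis genes. They did so in 1 of 21 S phase genes, 0 of 13 contractile ring and 0 of 19 abscission genes, against 4.94% of all windows.

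The cells in the gate were checked against markers. Radial glia markers (9 genes) summed to 1314 to 1957 CPM in the Scr and 1694 to 2447 CPM in the Mir libraries, and intermediate progenitor markers (6 genes) to 1579.7 to 2519.7 and 2413 to 3512 CPM, each with 0 genes lower in mean in Mir. Cortical neuron markers (10 genes) were also abundant, at 5549.5 to 7030.1 CPM in Scr and 4589 to 5112 CPM in Mir, with 8 lower in mean. The label of the samples names progenitors, and neuron markers were present beside theirs. Scr replicate 2 had the lowest sum of all libraries for radial glia and intermediate progenitor markers and the highest for cortical neuron markers. The cortical neuron genes did not all follow their sum. Tubb3 was at 1011 CPM in Scr replicate 2 (557 and 626 in Scr replicates 1 and 3), Stmn2 at 778 (354 and 524) and Bcl11b at 682 (261 and 307). Neurod6, the most abundant of them, went the other way, at 2003 CPM (2378 and 2274). Mir replicate 3, the highest library for all of the 8 cytokinesis genes but Ect2, had the highest radial glia sum. For intermediate progenitor markers it had the lowest sum of the Mir libraries. Inhibitory neuron markers (10 genes, all lower in mean) summed to 364 to 1332 CPM in Scr and 201 to 475 CPM in Mir, with the highest value in Scr replicate 2, the library lowest in all 8 cytokinesis genes. Endothelial markers (8 genes, all lower in mean) summed to 12.04 to 199.6 and 1.21 to 33.7 CPM, again highest in Scr replicate 2, with Pecam1, Cdh5, Cldn5 and Emcn at 0 counts in Mir replicates 1 and 2. Microglia markers (8 genes) summed to 17.8 to 60.5 and 10.1 to 41.5 CPM and haemoglobin genes (6) to 246 to 846 and 0.703 to 567 CPM. The part of these differences in the levels of the cytokinesis genes was not tested.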

How the data were processed

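The values were whole-number read counts per Ensembl gene for 6 libraries, deposited by the authors without normalization. The submitters' processing notes name HISAT2 2.1.0, HTSeq 0.11.0, DESeq2 1.18.1 and the build mm10 (GRCm38); how multi-mapping reads and strand were handled, and which annotation was used, is not given in the sources used here. Per the labels' protocols, libraries were made with the SMART-seq v4 kit, which does not mark strand, and read as 50 bp single reads. Of the listed reads 21.9 to 23.6% fell in genes, and the 5 summary lines (no feature 28.8 to 31.6%, not unique 39.3 to 44.4%) stayed out of library sizes. Reads were amplified without molecular identifiers.

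Symbols, positions and exon lengths came from GENCODE M21 on GRCm38, in which 54079 of 54146 IDs had a symbol. The whole table was fitted with edgeR 4.0.16 (R 4.3.3): filterByExpr, TMM factors of 0.992 to 1.01, a two-sided quasi-likelihood F test with group as the sole term, and Benjamini-Hochberg adjustment over 16897 genes, with a threshold of 0.05. The script was tested on simulated data. The tests rest on the variation among embryo pools. Libraries of a group differed beyond sampling noise (chi-square per degree of freedom 7.69 to 25.6). DESeq2 1.42.0 and limma-voom (limma 3.58.1), other filters and scalings, a replicate block and left-out libraries were the alternatives. DESeq2 gave no adjusted p for 2302 genes, which stayed uncalled.

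The 8 genes and all lists were chosen from known function with earlier results of these data known. Besides the 8, the genes named were the 2 highest and 2 lowest fold changes of the central spindle, contractile ring and abscission lists, the 2 highest of the early mitosis and S phase lists, and the 5 genes nearest in profile; exceptions are stated. The list of contractile ring genes holds 2 IDs for Sept2, of which 1 had no counts and was not tested; the annotated overlap makes its counts uncertain.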

Additional observations from a re-analysis of the deposited data

How the results depend on the processing

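The number of genes called depended on the method. Against 0 higher and 1 lower in the edgeR fit reported, DESeq2 called 233 higher and 322 lower. With no filter on low counts edgeR called 15 higher (Racgap1 among them) and 16 lower among 30638 genes. Without Scr replicate 2 and Mir replicate 3 it called 10 and 19 among 17007. Limma-voom called 0 lower. Leaving out 1 library at a time gave 0 to 2 lower, with 0 without Mir replicate 1 or 2 and 2 without Mir replicate 3. With the replicate block 0 were called lower and the median of the 8 cytokinesis genes was 0.44. Deviations from the group mean correlated between same-numbered libraries at 0.25, -0.15 and -0.09 for replicates 1, 2 and 3. Scr replicate 2 correlated best with Mir replicate 3 (0.36). Deviations within a group sum to 0, which ties these values to each other. Whether libraries of the same number were paired cannot be told from them. The cause of the changes between settings was not tested.

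The median of the 8 stayed above 0 in 13 of 13 alternatives, from 0.25 without Scr replicate 2 and Mir replicate 3 to 0.50 without Scr replicate 3. Racgap1 ranged from 0.60 to 0.74 and Incenp from 0.43 to 0.81. Anln and Prc1 fell below 0 in 1 alternative each, that without both libraries. Racgap1, Ect2, Aurkb and Incenp had separate groups with all libraries, and leaving out a library cannot make separate groups overlap. With any 1 library left out the count of separate genes could therefore only stay or rise. It was 4 to 6 of 8, beside 12.7 to 18.2% of all genes, and nothing is read from it. Without Scr replicate 2 the list medians were 0.19 for early mitosis, 0.29 for central spindle, 0.05 for abscission and, with its sign turned, 0.000929 for contractile ring genes. The contractile ring median was -0.12 without Mir replicate 3. With 3 libraries a group and a biological coefficient of variation of 23.6%, small differences such as that of Cit are within the spread.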
